A study of Arabidopsis thaliana with 46 samples.

Results

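The effect of TGA4 on root cells whose translation was left running was measured as TGA4_mChx against EV_mChx, across every listed gene except TGA4 itself, whose own count is carried by the vector. Of 33341 genes listed, 33340 were therefore members, and 18673 of these had counts enough to be tested. TGA4_mChx cells were protoplasts of Arabidopsis thaliana Col-0 roots, from 10-day-old seedlings, that expressed TGA4 fused to a part of the glucocorticoid receptor (GR) together with a red fluorescent marker, and EV_mChx cells carried the same vector with no transcription factor. Both groups received a nitrogen (N) supply and 10 µM dexamethasone (DEX), which releases the GR fusion into the nucleus, and neither received cycloheximide (CHX), an inhibitor of translation. Cells were sorted for the red marker and there were 3 libraries per group. Per the study's methods, the cells of each vector were transfected once and then split into wells, so the replicates are wells, p-values measure the spread between wells, and an effect of the vector cannot be told apart from a difference between the transfections. The 6 libraries are part of a set of 12 that also holds both vectors with 35 µM CHX (EV_pChx and TGA4_pChx), and the series has 46 libraries in all.

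TGA4 is a bZIP transcription factor of the TGA family, which is named for the TGACG motif that its members bind. TGA factors act with NPR proteins in salicylic acid responses and induce CC-type glutaredoxins and detoxification enzymes. TGA1 and TGA4 are also known as regulators in the nitrate response of roots. Because proteins could be made after TGA4 entered the nucleus, genes that TGA4 acts on itself and genes changed by the products of those genes were measured together here.

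The TGA4 transcript stood at 28.9, 35.2 and 37.3 CPM (counts scaled to a common library size) in the EV_mChx libraries and at 12089, 8614 and 9993 CPM in the TGA4_mChx libraries, so all 6 libraries matched the vector in their labels. This transcript does not check the absence of CHX. Library totals ran from 2802789 to 5554160 counts in EV_mChx and from 2397664 to 3915762 in TGA4_mChx. EV_mChx replicate 2 stood apart: it had the most counts of the 6 and the fewest detected genes (20209, against 21651 to 22695 in the others), and 656 of the genes kept for testing were at 0 in it, against 153 to 247 elsewhere. Its correlation with the other EV_mChx libraries was 0.947 and 0.948, while these correlated at 0.971 with each other. Where a list's count moved by over 1.5 times, or a call was lost, without it, the values without it are given for the lists and genes named.

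Motif context of genes that rose with TGA4 is shown first. The 250 bases before the annotated gene start are printed for 5 genes described below that hold TGACG there, and for AOC2, which does not. They are read 5′ to 3′ on the strand of the gene from the RefSeq TAIR10.1 assembly, with TGACG or its complement CGTCA in capitals. The windows are chr1:977912-978161, minus strand (GRXS13), chr1:10014257-10014506, minus strand (GRX480), chr1:24848070-24848319, plus strand (ABO3), chr5:18228518-18228767, plus strand (NPR3), chr5:25089627-25089876, minus strand (GSTU9) and chr3:9406419-9406668, plus strand (AOC2). These genes were chosen after their values were seen.
GRXS13: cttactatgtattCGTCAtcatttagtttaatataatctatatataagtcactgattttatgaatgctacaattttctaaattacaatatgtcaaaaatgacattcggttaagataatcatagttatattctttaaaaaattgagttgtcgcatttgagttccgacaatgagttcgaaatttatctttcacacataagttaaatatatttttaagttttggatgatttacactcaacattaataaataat
GRX480: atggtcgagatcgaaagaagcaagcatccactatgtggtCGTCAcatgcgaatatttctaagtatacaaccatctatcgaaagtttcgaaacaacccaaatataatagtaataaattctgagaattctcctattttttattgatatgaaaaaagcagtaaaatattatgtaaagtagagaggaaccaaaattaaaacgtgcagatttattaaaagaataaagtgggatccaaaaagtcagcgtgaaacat
ABO3: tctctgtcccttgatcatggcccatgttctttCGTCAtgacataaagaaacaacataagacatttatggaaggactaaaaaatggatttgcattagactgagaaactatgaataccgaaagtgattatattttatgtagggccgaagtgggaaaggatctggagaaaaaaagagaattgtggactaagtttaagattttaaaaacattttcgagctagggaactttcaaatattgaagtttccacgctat
NPR3: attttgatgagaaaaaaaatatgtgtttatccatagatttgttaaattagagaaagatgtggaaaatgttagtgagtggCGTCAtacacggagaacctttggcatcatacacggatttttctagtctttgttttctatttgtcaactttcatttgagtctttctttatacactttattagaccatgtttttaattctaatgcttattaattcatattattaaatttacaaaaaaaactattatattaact
GSTU9: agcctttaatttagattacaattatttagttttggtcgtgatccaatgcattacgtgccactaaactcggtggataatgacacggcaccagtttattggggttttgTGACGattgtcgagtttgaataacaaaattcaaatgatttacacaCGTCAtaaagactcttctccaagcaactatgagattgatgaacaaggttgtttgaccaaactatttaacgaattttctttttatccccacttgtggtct
AOC2: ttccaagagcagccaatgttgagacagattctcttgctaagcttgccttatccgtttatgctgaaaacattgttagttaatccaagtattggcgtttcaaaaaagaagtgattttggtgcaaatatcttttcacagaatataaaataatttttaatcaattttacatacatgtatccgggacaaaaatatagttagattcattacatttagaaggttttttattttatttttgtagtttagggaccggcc

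Counted from the gene start, the match begins at -237 in GRXS13, -211 in GRX480, -218 in ABO3 and -171 in NPR3, and GSTU9 has a match at -144 and another at -99. Over windows of 300 bases (250 before and 50 after the start), TGACG on either strand was found in 32.5% of the promoters of genes higher with TGA4 (176 of 542), in 18.9% of those lower (105 of 555), in 24.05% of all tested genes and in 22.6% of all annotated nuclear genes. The longer TGACGT, each of whose matches also holds TGACG, was found in 15.9%, 7.03%, 9.54% and 8.27% of the same groups. Other motifs varied too: the WRKY motif TTGACC stood in 21.96% of promoters of higher genes, 13.0% of lower and 14.7% of tested genes, the G-box CACGTG in 6.09%, 8.83% and 8.51%, and TATAAA in 57.6%, 59.6% and 50.6%. Of the genes higher with TGA4, TGACG stood in 39.7% of those also called higher at 60N (described below, 87 of 219). It stood in 28.4% of those tested there and not called higher (84 of 296). These shares are descriptions of letters in a window and were not tested.

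Across all tested genes, 1097 (5.87%) differed between TGA4_mChx and EV_mChx at an adjusted p under 0.05 (edgeR's quasi-likelihood test with Benjamini-Hochberg adjustment), which is what "called" means here. Of these, 542 (2.90%) were higher and 555 (2.97%) lower with TGA4. The counts given below for gene lists are to be read against these shares. The median log2 fold change was 0.79 over the higher and -0.76 over the lower genes, against -0.02 over all tested genes, and 343 of the 1097 changed by at least 2-fold (190 higher, 153 lower). The ranges of the groups did not overlap for 1081 of the called genes, and for 23.7% of all tested genes. Of 968 tested genes with no protein-coding annotation, 31 were called (15 higher, 16 lower), to be read against 5.87% of all tested genes. The count was 747 without EV_mChx replicate 2 (4.0% of tested genes; 350 higher, 1.88%, and 397 lower, 2.13%), of which 659 were among the 1097, and it was 692, 576 and 550 without TGA4_mChx replicates 1, 2 and 3. Members of a gene list that did not pass the test, and called genes given beside those of the naming rule, were picked after their values were seen.

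**Figure D1:**
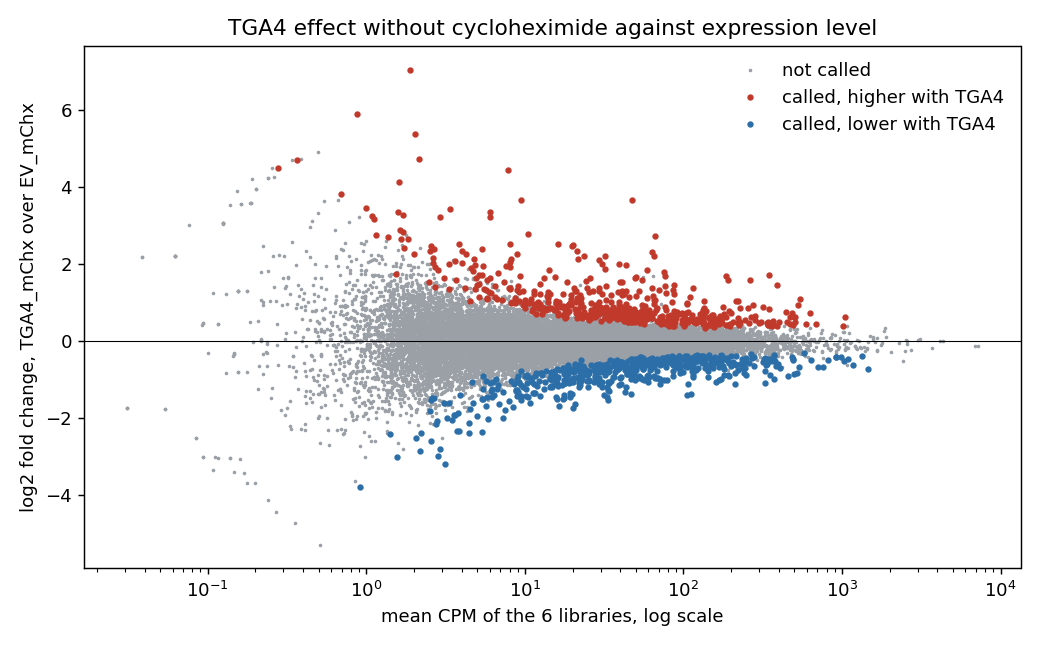
The log2 fold change of each tested gene (vertical axis) against its mean CPM over the 6 libraries (log scale), with called genes in colour. The 542 higher and 555 lower genes run from low to high levels, and the largest fold changes lie at low levels, where few counts stand behind them.

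The CC-type glutaredoxins GRXS13 and GRX480, redox proteins of a plant-specific class that bind TGA factors, rose steeply with TGA4. GRXS13 (AT1G03850) stood at 6.09, 4.18 and 10.6 CPM with the empty vector and at 72.2, 110 and 79.1 CPM with TGA4, a log2 fold change of 3.64 (SE 0.29, edgeR adjusted p = 8.3e-08). GRX480 (AT1G28480), also called ROXY19, went from 1.60, 1.13 and 1.48 CPM to 21.0, 15.2 and 16.3 CPM, a log2 fold change of 3.64 as well (SE 0.32, edgeR adjusted p = 2.3e-07). Every TGA4 library was above every EV library for both genes, and both stayed called without EV_mChx replicate 2 (3.30 and 3.48). A low member, AT5G11930, was called at 2.14 (SE 0.60), from 0.97 ± 0.33 to 4.29 ± 0.85 CPM (SD, n = 3), and lost the call without that replicate (edgeR adjusted p = 0.099). In all, 3 of the 7 tested CC-type glutaredoxins were higher, none was lower, and the list's median log2 fold change was 0.79.

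Glutathione transferases, which attach glutathione to toxic compounds, moved in both directions. GSTL1 (AT5G02780), of the lambda class, rose from 25.5 ± 4.4 to 91.6 ± 13.7 CPM (log2 fold change 1.83, edgeR adjusted p = 1.6e-07; singled out after its values were seen). In the tau class, GSTU9 (AT5G62480) was at 15.4, 12.7 and 18.9 CPM in EV_mChx and at 32.2, 42.6 and 40.1 CPM in TGA4_mChx (log2 fold change 1.30, SE 0.28, edgeR adjusted p = 0.0076). GSTU4 fell from 169, 176 and 165 CPM to 98.8, 103 and 112 CPM, and GSTU27 was lower by a log2 fold change of -0.51. The tau class as a whole did not move one way: 1 of 23 tested members was called higher (4.35%) and 2 lower (8.70%), with a median of -0.13. The phi-class gene GSTF4, at 5.02 ± 1.30 CPM with the empty vector, was at 0.65 ± 0.40 CPM with TGA4, on 6 counts in total in the TGA4 libraries. Of all 200 tested genes with glutathione, thioredoxin or peroxidase in the product name, 11 were higher (5.5%) and 19 lower (9.5%). The shares over all tested genes were 2.90% and 2.97%. Without EV_mChx replicate 2 the counts were 7 and 19.

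Among the partners of TGA factors, NPR3 (AT5G45110), a receptor of salicylic acid, rose. It stood at 148, 140 and 151 CPM in EV_mChx and at 325, 299 and 272 CPM in TGA4_mChx, with no overlap (log2 fold change 1.03, SE 0.11, edgeR adjusted p = 2.6e-06). It was the only called gene of 6 tested NPR and NIMIN genes in this fit. All 6 had positive fold changes, including NPR4 at 0.65 (edgeR adjusted p = 0.076) and NPR1 at 0.15 (edgeR adjusted p = 0.65). Of 11 tested genes of salicylic acid synthesis and response, 2 were called, both higher. CBP60G (AT5G26920), an activator of salicylic acid synthesis, was at 12.8, 12.2 and 6.31 CPM against 25.1, 29.3 and 18.6 CPM (log2 fold change 1.21), and WRKY38 had 0, 0 and 3 counts against 3, 5 and 13 and was not called without EV_mChx replicate 2 (edgeR adjusted p = 0.16). UGT76B1, a glycosyltransferase that acts on salicylic acid and isoleucic acid, rose from 30.7 ± 1.7 to 74.9 ± 3.6 CPM (log2 fold change 1.28). None of the 8 other TGA genes tested was called by edgeR (TGA1 had a log2 fold change of 0.01), and their fold changes spanned -0.24 to 0.10.

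Of 19 tested genes of jasmonate synthesis and signalling, AOC2, AOC3, LOX3 and LOX4 rose and JAZ10 fell. AOC2 (AT3G25770) encodes an allene oxide cyclase, which makes the jasmonate precursor ring. It was at 0.64, 1.77 and 0.56 CPM in the EV_mChx libraries and at 11.6, 8.15 and 13.3 CPM in the TGA4_mChx libraries (log2 fold change 3.35, SE 0.41, edgeR adjusted p = 1.6e-05). Its neighbour on chromosome 3, AOC3, which was the more abundant copy, rose from 251 ± 25 to 444 ± 23 CPM (log2 fold change 0.82, edgeR adjusted p = 0.00036). The copies are alike in sequence, and reads shared between them could be split by the counting. The lipoxygenases LOX3 (20.6 ± 4.9 to 43.9 ± 11.8 CPM) and LOX4 (31.3 ± 4.7 to 55.7 ± 2.9 CPM) were also called. JAZ10, a repressor of jasmonate responses, fell from 39.1, 39.9 and 29.3 CPM to 21.3, 19.6 and 16.5 CPM (log2 fold change -0.93, edgeR adjusted p = 0.0012). The median over the list was 0.10, and the same split of 4 and 1 was found without EV_mChx replicate 2. The middle step of the pathway, AOS, had a log2 fold change of 0.09 (edgeR adjusted p = 0.76), and OPR3 of 0.24 (edgeR adjusted p = 0.43).

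**Figure D2:**
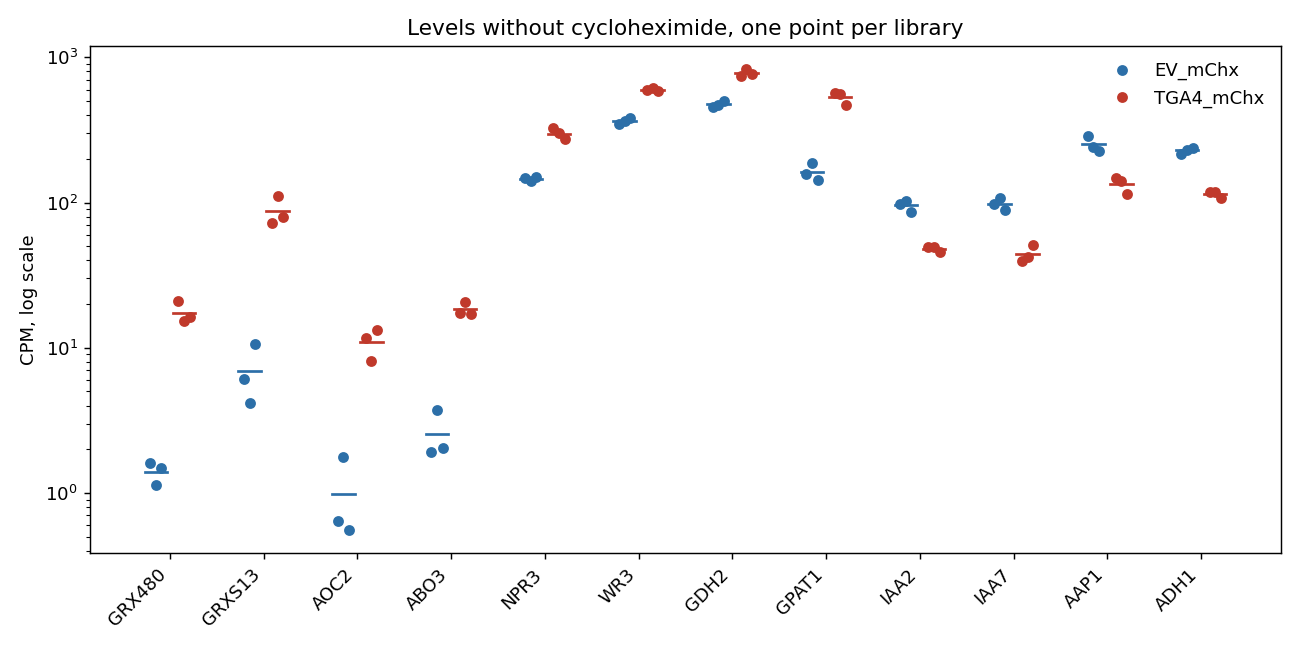
CPM on a log scale for 12 genes in each of the 6 libraries, with EV_mChx in blue, TGA4_mChx in red and a bar at each group's mean. For every gene shown the groups do not overlap, with GRX480, GRXS13, AOC2, ABO3, NPR3, WR3, GDH2 and GPAT1 higher and IAA2, IAA7, AAP1 and ADH1 lower with TGA4.

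Of 835 transcription factor genes tested, 34 were called higher (4.07%) and 32 lower (3.83%), against 2.90% and 2.97% of all tested genes. Without EV_mChx replicate 2 the counts were 20 and 21. This list was drawn by product name or synonym, and it left out RAV1, described below. WRKY genes, whose products bind W-box motifs in defence and stress genes, gave 8 higher and 3 lower of 59 tested (6 and 1 without that replicate). The WRKY gene ABO3 (AT1G66600, also WRKY63), known for abscisic acid responses, rose from 1.92, 3.70 and 2.04 CPM to 17.2, 20.8 and 17.2 CPM, a log2 fold change of 2.76 (SE 0.27, edgeR adjusted p = 9.9e-07). WRKY67, a related gene in the same chromosomal region, had 0, 0 and 2 counts in EV_mChx and 9, 11 and 22 in TGA4_mChx, and reads of these related genes may be shared. WRKY75, which acts in phosphate starvation and senescence, went from 41.4, 37.3 and 40.3 CPM to 88.7, 90.1 and 85.6 CPM (log2 fold change 1.15). WRKY24 was the WRKY gene lowered most by TGA4 among those that passed the test (-0.89), though not without EV_mChx replicate 2 (edgeR adjusted p = 0.069).

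Other transcription factors that rose were of several families. RAV1 rose from 10.6, 12.9 and 13.0 CPM to 37.4, 34.8 and 36.5 CPM (log2 fold change 1.55), and MYB59 from 6.41, 5.47 and 6.87 CPM to 22.8, 21.5 and 22.5 CPM (1.84). The AP2-type factors DREB26 (2.32) and SNZ (4.43), the LBD factor LBD1 (2.34), the bHLH factors BHLH32 (2.11) and BHLH92 (1.95), and XND1 (1.90), a NAC factor that restrains xylem formation, were also called higher. SNZ, a repressor of flowering, rested on 60, 5 and 90 counts in the TGA4 libraries, so replicate 2 was far below the others, against 3, 1 and 6 counts in the EV libraries. DREB26 was at 11.5, 2.74 and 8.35 CPM with the empty vector, lowest in replicate 2, and without it the log2 fold change was 1.83. Among those that fell, MYB108 went from 64.1, 64.2 and 55.1 CPM to 24.7, 23.7 and 24.3 CPM (log2 fold change -1.33, SE 0.13, edgeR adjusted p = 9.0e-07), and the AP2-type gene AT3G16280 from 11.6 ± 2.7 to 2.90 ± 0.74 CPM (-2.01).

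Genes of nitrate uptake and ammonium assimilation changed by less, and at high levels. WR3 (AT5G50200, also NRT3.1), the partner protein of high-affinity nitrate transporters, was at 348, 362 and 384 CPM in EV_mChx and at 599, 618 and 583 CPM in TGA4_mChx (log2 fold change 0.72, SE 0.10, edgeR adjusted p = 7.1e-05). GDH2, a subunit of glutamate dehydrogenase, went from 456, 472 and 498 CPM to 749, 831 and 768 CPM (0.72, SE 0.10, edgeR adjusted p = 6.1e-05). The transporter and nitrate sensor NRT1.1 was called at 0.61, UPM1, an enzyme of the siroheme cofactor of nitrite reductase, at 0.46, and the cytosolic glutamine synthetase AT5G37600 (GSR 1) at 0.44. Another glutamine synthetase, GLN1.3, was lower (-0.43). Of 20 tested genes 5 were higher and 1 lower with a median of 0.28, and without EV_mChx replicate 2 there were 3 higher and none lower, since NRT1.1, GSR 1 and GLN1.3 were not called. The transporter NRT2:1 had a log2 fold change of 0.84 (edgeR adjusted p = 0.072), and the nitrate reductase NIA2 of -0.24 (edgeR adjusted p = 0.32). None of the 13 tested nitrogen regulators, NLP7 and LBD37 among them, was called, and the lowest edgeR adjusted p was 0.26, for HRS1 (-1.10).

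Amino acid permeases and the related LHT carriers, which import amino acids, gave 4 lower and none higher of 10 tested. AAP1 fell from 286, 243 and 227 CPM to 147, 141 and 114 CPM (log2 fold change -0.91, SE 0.14, edgeR adjusted p = 0.00033), and AAP4 from 67.3, 86.6 and 75.7 CPM to 37.8, 41.5 and 42.7 CPM (-0.92). AAP7 (-0.77) and AAP5 (-0.46) were close to the threshold and lost the call without EV_mChx replicate 2. LHT1, another importer, had a log2 fold change of -0.02. In the UMAMIT family of amino acid exporters, UMAMIT33 rose from 16.0, 8.37 and 10.2 CPM to 38.6, 51.5 and 51.2 CPM (2.09, SE 0.24), SIAR1 was higher at 0.59 and UMAMIT30 lower at -0.84, with 14 of 17 tested members not called.

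The auxin repressors of the Aux/IAA family, which hold auxin response factors in check and are themselves induced by auxin, went down: 7 of 21 tested were called lower and none higher, with a list median of -0.54. IAA2 (AT3G23030) fell from 97.1, 103 and 86.1 CPM to 49.0, 49.3 and 45.4 CPM (log2 fold change -0.998, SE 0.12, edgeR adjusted p = 9.1e-06). Its chromosomal neighbour IAA7 (AT3G23050) fell from 97.5, 108 and 88.5 CPM to 39.7, 41.9 and 51.2 CPM (-1.13, SE 0.14), and IAA9 from 313, 308 and 293 CPM to 196, 185 and 177 CPM (-0.71). IAA11 (-1.42), IAA1 (-1.55), IAA8 (-0.66) and IAA16 (-0.40) made up the rest, and 5 of the list were called without EV_mChx replicate 2, where IAA1 and IAA16 were not. IAA28, also in the list, had a log2 fold change of 0.06 at 104, 95.4 and 120 against 111, 120 and 103 CPM. Of other auxin genes, looked up after the values were seen, the influx carrier AUX1 was at -0.56, while the auxin-conjugating enzymes GH3.3 and GH3.17 rose by 1.77 and 1.05. Without EV_mChx replicate 2, AUX1 (edgeR adjusted p = 0.098) and GH3.3 (0.088) were not called. None of 20 tested SAUR genes, and none of 7 tested type-A response regulators, was called by edgeR.

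**Figure D3:**
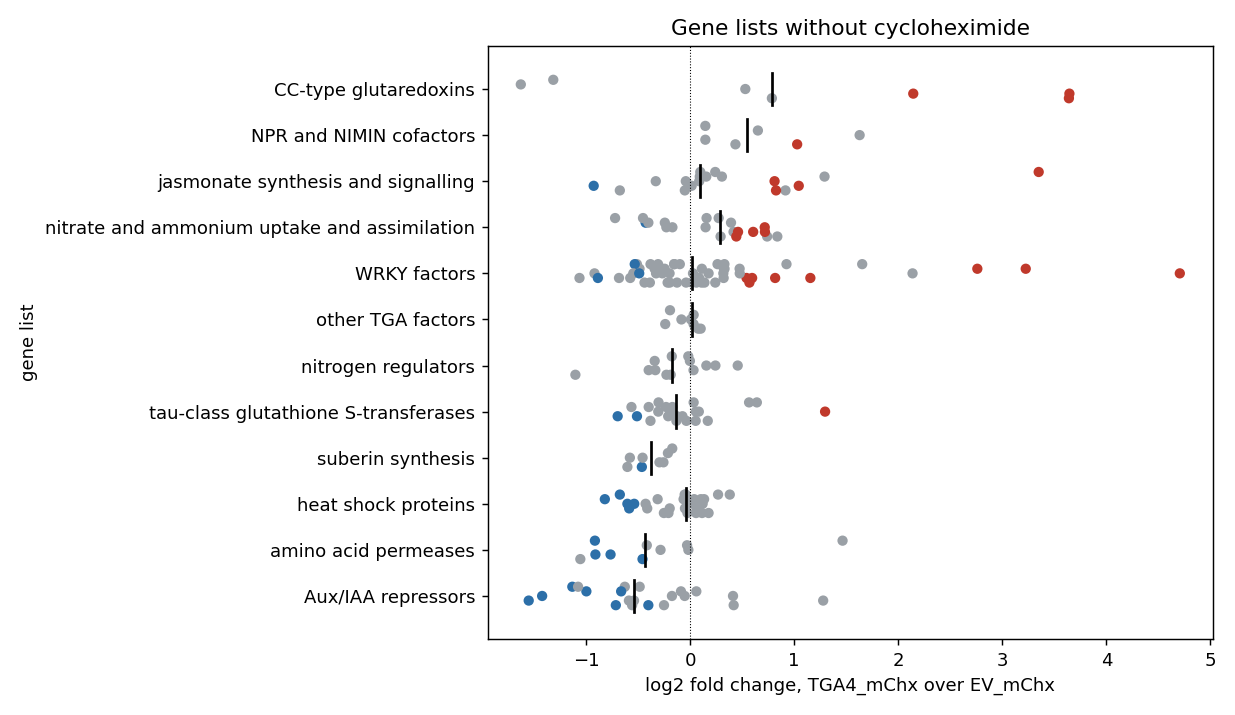
Log2 fold changes without CHX for the tested members of 12 gene lists, with called genes in red (higher) and blue (lower), others in grey, and a black bar at each list's median. The glutaredoxins reach 3.64 on the right, and the Aux/IAA repressors and amino acid permeases hold their called members on the left.

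Of the tested cell type markers, 1 of 3 endodermis markers (CASP1) and both phloem markers were called lower with TGA4. CASP1 (AT2G36100), which builds the Casparian strip that seals the endodermis, was at 51.3, 52.9 and 54.4 CPM with the empty vector and at 26.6, 18.9 and 34.6 CPM with TGA4 (log2 fold change -0.96, SE 0.20, edgeR adjusted p = 0.0044). The annotated CASP1 gene overlaps AT2G36090, an F-box gene on the opposite strand that rose from 11.3 ± 1.0 to 53.2 ± 16.9 CPM, and the library kit does not mark strand. ESB1, CASP4 and PER64, further genes of the Casparian strip looked up after the values were seen, were at -1.40, -1.52 and -1.48, and ESB1 stood at 141, 182 and 163 CPM against 62.9, 57.4 and 64.7 CPM. The phloem markers SUC2 (35.8 ± 3.3 to 21.5 ± 3.9 CPM) and APL (59.5 ± 5.8 to 42.5 ± 4.9 CPM) were called at -0.76 and -0.49, and the sieve element genes SEOR1 and SEOa at -1.35 and -3.20. All 8 tested genes of suberin synthesis had negative fold changes (median -0.38), of which KCS2 was called (-0.46). APL (edgeR adjusted p = 0.095) and KCS2 (0.077) were not called without EV_mChx replicate 2. SEOa rested on 1, 1 and 4 counts in the TGA4 libraries. With CHX, in cells of the same transfections, CASP1 and ESB1 were lower too (-1.62 and -1.71). So were SUC2 (-0.72) and APL (-0.60), while SEOa was at -0.17 and not called.

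The summed level of the 3 endodermis markers was 84.8 to 93.3 CPM in EV_mChx and 40.0 to 57.8 CPM in TGA4_mChx, and that of the 2 phloem markers 86.6 to 104 CPM and 59.5 to 68.6 CPM. The endodermal factors SCR (-0.41) and MYB36 (-0.62) were not called. The sums overlapped between the groups for root hair (20.8 to 26.3 and 21.6 to 30.4 CPM), stele (37.9 to 50.7 and 40.8 to 53.7 CPM), xylem (23.98 to 32.3 and 27.0 to 30.5 CPM), root cap and epidermis markers. The cortex marker AT1G62500 was at 0 in all 6 libraries, the quiescent centre marker was under 1 CPM, and of the 4 leaf markers 2 were at 0 in all 6. Fewer cells of a type and less RNA per cell cannot be told apart in these bulk samples, and the part of cell composition in the other differences was not tested.

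GPAT1 (AT1G06520), a glycerol-3-phosphate acyltransferase, rose from 158, 186 and 142 CPM to 567, 563 and 470 CPM (log2 fold change 1.72), and the desaturase FAD7 from 41.8 ± 5.6 to 112 ± 9 CPM (1.43), both singled out after their values were seen. EXLA2, an expansin-like protein of the cell wall, rose from 3.21, 5.79 and 5.01 CPM to 19.5, 33.7 and 30.1 CPM (2.51), and the beta-galactosidase BGAL8 from 5.77, 7.08 and 5.38 CPM to 22.5, 40.4 and 37.6 CPM (2.45). The GRAM domain genes AT5G23350 and AT5G08350 were called at 3.22 and 2.49, the former on 1, 0 and 16 counts in the EV libraries. AT5G08350 overlaps AT5G08340 on the opposite strand, which was also called higher (1.64), and reads in the overlap could not be told apart without strand. ADH1, the alcohol dehydrogenase of fermentation, fell from 216, 231 and 238 CPM to 118, 118 and 108 CPM (-0.99, SE 0.11) and was the only called gene of 9 tested hypoxia genes. Of 29 tested heat shock proteins 5 were lower (17.2%, against 2.97% of all tested genes), among them HSP21 (-0.82) and HSP17.6A (-0.54). Without EV_mChx replicate 2 there was 1, neither of these. Ribosomal proteins gave 2 lower of 306 tested (0.65%), and 0 without EV_mChx replicate 2. No mitotic cyclin or B-type CDK was called among 12 tested by edgeR.

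Some called genes lay side by side. Of 17700 pairs of tested protein-coding neighbours, 105 (0.593%) had both genes called, 80 of them in the same direction (40 higher, 40 lower). Of all tested genes, 5.87% were called, so some pairs are called together by chance, and an excess over that number was not tested. They included wall-associated kinase-like genes on chromosome 1, WAKL6 (1.08), WAKL1 (1.02), WAKL2 (1.86), WAKL4 (2.12) and WAKL5 (2.32), whose sequences are related. WAKL4 stood at 8.09 ± 2.01 CPM with the empty vector and at 35.2 ± 5.57 CPM with TGA4 (SD, n = 3), and WAKL6 and WAKL1 were not called without EV_mChx replicate 2 (edgeR adjusted p = 0.06 and 0.17). The cytochrome P450 gene CYP91A2 (2.31) and the non-coding RNA AT4G37432 (2.71) overlap on opposite strands of chromosome 4, so their reads could not be told apart without strand.

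The same vectors with CHX, from the same transfected cells, showed how far each effect was seen when new protein could not be made. With CHX, 357 genes (1.91%) were called. Of the 1097 genes called without CHX, 231 were called in the same direction with CHX, which is 21.1% of the first list and 64.7% of the second, and 1 (SIAR1) in the other. Signs were the same for 91.0% of the higher and 90.5% of the lower genes, while 50.4% of all tested genes were higher in TGA4_pChx than in EV_pChx. A difference between the transfections would be shared by both comparisons and cannot be told apart from a TGA4 effect seen in both. ABO3 (2.76 without and 2.96 with CHX), WRKY75 (1.15 and 1.20), GPAT1 (1.72 and 2.06), IAA2 (-0.998 and -0.83) and ADH1 (-0.99 and -0.93) had like values on both sides.

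The difference itself was called for 24 genes (0.129%), with 1235 genes at an unadjusted p under 0.05, and 22 of the 24 were called without CHX. The effect was smaller or more negative with CHX in 20 of them. GRX480 had a log2 fold change of 3.64 without CHX and 0.38 with it, a difference of -3.27 (edgeR adjusted p = 0.00011). CHX itself raised this gene: EV_pChx libraries stood at 428, 453 and 505 CPM and TGA4_pChx at 440, 633 and 727 CPM. GRXS13 went from 3.64 to 1.05 (edgeR adjusted p = 0.0012 for the difference), RAV1 from 1.55 to 0.05 and AT3G13600, a calmodulin-binding family gene, from 2.21 to 0.87. GRXS13 too was higher with CHX in empty-vector cells, at 62.2, 77.8 and 110 CPM in EV_pChx. It was at 127, 174 and 212 CPM in TGA4_pChx. SIAR1 was raised without CHX (0.59) and lowered with it (-1.12, edgeR adjusted p = 5.8e-05): 59.6, 56.9 and 54.2 CPM in EV_pChx against 26.8, 24.3 and 28.2 CPM in TGA4_pChx. The response to CHX, fitted as 1 value over both vectors, was over 5-fold for 10 of the 24, for 1288 genes in the set and for 117 of the 1097. Leaving out genes of that kind, as the study did, gave 980 called genes (464 higher, 516 lower).

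**Figure D4:**
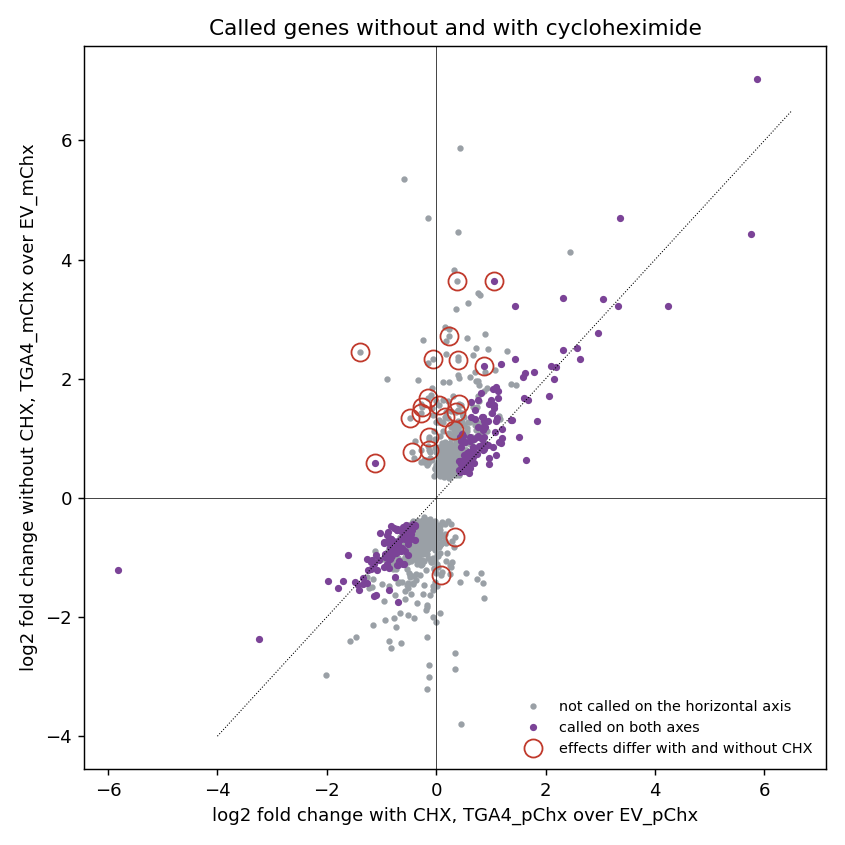
For the 1097 genes called without CHX, the log2 fold change without CHX (vertical axis) against that with CHX (horizontal axis), with genes called on both axes in purple, genes whose effects differ ringed in red, and a dotted line of equal effects. Most ringed genes lie above the line near 0 on the horizontal axis, GRX480 at 3.64 and 0.38 among them.

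A separate experiment measured the same vectors in other transfected cells, all with 35 µM CHX, at the N supply of 60N (20 mM KNO3 and 20 mM NH4NO3). There 1418 of 18341 tested genes (7.73%) were called between TGA4_60N and EV_60N. Of the genes called higher without CHX, 515 were tested there and 219 (42.5%) were again called higher, against 5.03% of all genes tested in both. Of the genes called lower, 523 were tested and 57 (10.9%) were again called lower, against 2.66% of all. By sign alone, 85.0% of the higher and 76.1% of the lower genes kept their direction. Of all genes tested at 60N, 45.8% were higher there with TGA4. The 276 genes called in the same direction were 26.6% of the first list and 21.6% of the second, and 12 were called the other way. In all, 111 genes were called in the same direction without CHX, with CHX and at 60N, 95 of them higher and 16 lower.

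Genes in that set included GRXS13 (3.64, 1.05 and 3.57 in the 3 comparisons), AOC2 (3.35, 2.32 and 4.15), ABO3 (2.76, 2.96 and 4.45), LBD1 (2.34, 2.63 and 7.30), UMAMIT33 (2.09, 1.63 and 1.57), NPR3 (1.03, 0.44 and 0.52), WR3 (0.72, 0.61 and 1.04) and GDH2 (0.72, 0.51 and 1.28) among the higher, and IAA1, IAA2, IAA9 and ADH1 among the lower. GRX480 was called at 60N as well (1.31). Of 22 Aux/IAA genes tested at 60N, 9 were called lower, IAA11 (-1.68) among them. IAA7, called lower with CHX (-0.71), was not called at 60N (-0.05, edgeR adjusted p = 0.96). Of the endodermal genes, CASP1 (-0.59, edgeR adjusted p = 0.25) and ESB1 (0.59, edgeR adjusted p = 0.65) were not called at 60N. The phloem genes SUC2 (-0.001), APL (-0.27) and SEOa (0.21) were not called there either, nor were the permeases AAP1 (-0.11) and AAP4 (-0.11).

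**Figure D5:**
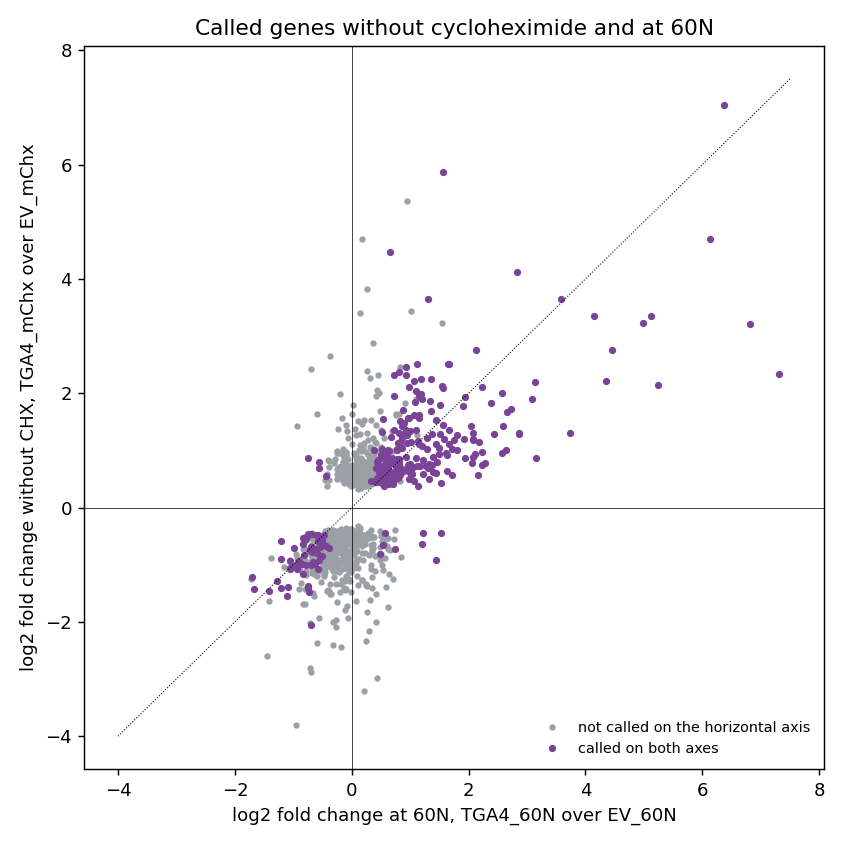
For the 1038 genes called without CHX and tested at 60N, the log2 fold change without CHX (vertical axis) against that at 60N (horizontal axis), with genes called on both axes in purple and a dotted line of equal effects. Higher genes spread to the right, LBD1 to 7.30. Of the 523 lower genes tested, 57 are also called lower there, and 76.1% have the same sign.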

How the data were processed

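The authors trimmed reads, mapped them to TAIR10 with TopHat2 and derived gene counts in R (GenomicFeatures, GenomicAlignments); the deposited values used here are raw counts per gene. The counting was not stated to use strand. The main comparison (TGA4_mChx minus EV_mChx) was fitted with edgeR 4.0.16 in R 4.3.3 over the 12 libraries of the CHX experiment (TMM factors, filterByExpr, a mean per group, quasi-likelihood F test, Benjamini-Hochberg over all tested genes, threshold 0.05), and 60N in a fit of its own over 18 libraries. CPM use effective library sizes. DESeq2 1.42.0, which the authors used with a batch term, was an alternative. The batch is not in the labels and was not modelled. The test was also tested on simulated data. The members and gene lists were chosen with earlier results of these data known. Named genes were called, did not overlap between groups and reached a mean of 5 CPM: the 15 largest changes each way, 8 transcription factors each way, the 6 smallest p for the difference with and without CHX, and up to 4 per list; others are said to be chosen after their values were seen. List patterns were corrected, and promoter windows cut from the RefSeq genome, after the data were seen. That the CHX experiment had the N supply of 60N comes from the methods, not the labels. Replicate numbers were not used to pair the samples in the main fit. Alternatives were other size factors, DESeq2, no filter, the 6 libraries alone, thinning to the smallest total, a replicate block, and leaving out each library.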

Additional observations from a re-analysis of the deposited data

Results flagged for a closer look

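The effect of TGA4 differed between cells with and without CHX, by the test of the difference itself, for 24 genes. Written as the log2 fold change with CHX minus that without, the differences of the named genes were -3.27 for GRX480, -1.71 for SIAR1, -2.48 for the non-coding RNA AT4G37432, -1.50 for RAV1, -1.34 for AT3G13600 and -2.59 for GRXS13. The response to CHX over both vectors was over 5-fold for GRX480, RAV1 and AT3G13600, and its part in their differences was not tested. For GRXS13 the response over both vectors was under 5-fold, but the vectors differed. Its mean was 6.95 CPM in EV_mChx and 83.2 CPM in EV_pChx, against 87.3 CPM in TGA4_mChx and 171 CPM in TGA4_pChx. The part of this rise in its difference was not tested either. Groups of 3 libraries are too small for a test of single outlying libraries.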

How the results depend on the processing

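The count of 1097 called genes (542 higher, 555 lower) was 1099 with RLE size factors (569 and 530), 1127 with DESeq2 (591 and 536), 1465 with no filter (747 and 718), 1281 with the 6 libraries alone (627 and 654), 988 after thinning (467 and 521) and 343 with at least 2-fold (190 and 153). Leaving out a library of either group gave 550 to 954 (293 to 500 higher, 247 to 454 lower). With RLE the share of higher calls was 569 of 1099. The replicate block gave 1380 (667 and 713), 31 for the difference and 335 for 60N. In the libraries without CHX, deviations from the group means correlated at 0.05, 0.02 and 0.05 between same-numbered libraries of the 2 groups. Between differently numbered ones they correlated at -0.044 to -0.004. Whether the numbers pair the libraries was not tested. The 24 genes for the difference were 41 with DESeq2, 130 with no filter, 23 with RLE, 20 after thinning and 11 to 32 without a library. The 276 genes shared with 60N were 281 with RLE, 319 with DESeq2, 85 at 2-fold in both, and 185 to 238 without a library. The share of higher genes with the promoter motif was 15.9% for TGACGT. No direction turned among the 97 named genes, and 48 of them were called under every alternative that could be fitted for them (with the 6 libraries alone and after thinning, some were not tested); 29 were not called without EV_mChx replicate 2 and 40 not without TGA4_mChx replicate 3. The smallest library held 2397664 counts, which limits genes of a few CPM.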

Other observations

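Of the called genes, 4 had no count in any EV_mChx library, so no fold is given. AT1G17615, a TIR-NBS disease resistance gene, had 8, 14 and 14 counts with TGA4, the F-box gene AT1G70960 had 4, 7 and 5, the AP2-type gene AT1G71450 had 3, 1 and 3, and AT3G07195, of the RIN4 family, had 1, 1 and 4. Without EV_mChx replicate 2, AT1G17615 kept its call (edgeR adjusted p = 0.0047) and the others did not.

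AGO3 rose from 71.8, 62.9 and 71.8 CPM to 146, 142 and 165 CPM (log2 fold change 1.14), beside its neighbour AGO2 (0.71), while AGO3 was at 0.33 with CHX (edgeR adjusted p = 0.14). CIPK5, a protein kinase gene, fell from 47.6 ± 6.7 to 19.4 ± 0.3 CPM (-1.29) and was at 0.08 with CHX and -1.27 at 60N. The boron transporter gene BOR1 rose from 29.8, 16.4 and 16.3 CPM to 58.8, 64.1 and 52.1 CPM (1.53). UBC16 and EXL4, of the 24 genes above, were called by edgeR with CHX and not without it (log2 fold changes 1.59 and 1.26 with CHX, -0.16 and -0.19 without). These genes were chosen after their values were seen.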
